A study of Mus musculus with 12 samples.

Results

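Glycogen is the branched glucose polymer in which hepatocytes, the parenchymal cells of the liver, store glucose after a meal and from which they release it during fasting. Ugp2, Gys2 and Gbe1 encode enzymes that build the polymer, and Pygl, Phka2 and Phkg2 encode the phosphorylase that breaks it down and subunits of the kinase that switches the phosphorylase on. Ppp1r3b, Ppp1r3c and Ppp1r3g encode subunits that carry protein phosphatase 1 to the glycogen particle, where the phosphatase activates glycogen synthase and inactivates phosphorylase. These 9 genes were chosen by name from earlier results of the same arrays, in which Ppp1r3g stood out as far higher in isolated hepatocytes. The difference between hepatocytes and liver is therefore given here as a description without a test, and tests are given for genotype.

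RNA had been measured on 12 arrays, 1 per sample, from 6 male mice on a C57BL/6 background, aged 7 to 8 weeks, on standard chow with free access to food. Each mouse gave a primary hepatocyte and a whole liver sample, so that 3 arrays each came from JNKΔhepa hepatocytes, WT hepatocytes, JNKΔhepa liver and WT liver. JNKΔhepa mice lack Jnk1 (Mapk8) in hepatocytes through Albf-Cre, a Cre recombinase driven by the albumin promoter with alpha-fetoprotein enhancer elements, and lack Jnk2 (Mapk9) in the whole body. WT mice were littermates with the floxed Jnk1 allele and intact Jnk2 (Jnk1f/fJnk2+/+). In liver, cells in which this Cre is not active keep Jnk1.

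The platform annotation gave a probe set to 8 of the 9 genes and to no other gene, 1 probe set each, among 18820 genes in all. Phkg2, the catalytic subunit gene of phosphorylase kinase, is annotated on 2 probe sets that are shared with Ccdc189, and is given no value. Values are on the log2 scale of RMA, a method that corrects, normalises and summarises the probes of an array, and a difference of 1 is a doubling. The liver arrays had medians of 4.09 to 4.12 over all probe sets and the hepatocyte arrays medians of 3.22 to 3.28, so levels set across the sample types depend on the scaling. A reading below the median of its own array is called dim, and a fold against dim readings is a lower bound.

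Mapk9 read 2.29 to 2.62 in JNKΔhepa hepatocytes, against 7.74 to 8.10 in WT hepatocytes, and 2.33 to 3.02 in JNKΔhepa liver, against 8.59 to 8.69 in WT liver. Mapk8 read 4.95 to 5.01 in JNKΔhepa hepatocytes, against 5.51 to 5.66 in WT hepatocytes, and 5.93 to 6.07 in JNKΔhepa liver, against 6.37 to 6.40 in WT liver. The 6 measured hepatocyte markers of 8 listed, which include albumin, were dim in none of the 4 groups, and their summed level was 14.88 to 15.05 over the hepatocyte arrays and 15.05 to 15.12 over the liver arrays. Most Kupffer cell, sinusoidal endothelium and stellate cell markers were not dim in the isolated hepatocytes, but Des was dim on all hepatocyte arrays and Marco on all of JNKΔhepa hepatocytes. Col1a1, Col3a1 and, in WT, Marco were dim on some hepatocyte arrays, with lowest readings of 2.96, 3.01 and 2.76. Of 4 cholangiocyte markers, Krt19, Krt7 and Epcam were dim on all hepatocyte arrays, and Krt7 and Epcam on all liver arrays too. Sox9 was dim on none, at 5.85 to 6.01 in hepatocytes and 5.76 to 6.47 in liver. The summed level of 6 Kupffer cell markers was 7.89 to 8.46 in JNKΔhepa hepatocytes and 8.43 to 9.24 in WT hepatocytes, against 10.66 to 10.85 in JNKΔhepa liver and 10.66 to 11.18 in WT liver. In a bulk sample, fewer cells of a type and less RNA per cell cannot be told apart.

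The gene that the results turn on is Ppp1r3g, and of the other targeting subunit genes Ppp1r3c also had a window in the promoter table. For both, the 250 bases before the annotated start are shown because 1 of the pair was far higher in hepatocytes and the other was not. The sequences are RefSeq's for GRCm38.p6, at chr13:35967656-35967905 on the plus strand for Ppp1r3g and at chr19:36736605-36736854 on the minus strand for Ppp1r3c, written 5′ to 3′. Capitals mark matches on either strand to 5 motifs: TGANTCA (the AP-1 site), TGACG (part of the cAMP response element), CACGTG (the E-box), CCAAT (the CCAAT box) and GGGCGG (the GC box).
Ppp1r3g: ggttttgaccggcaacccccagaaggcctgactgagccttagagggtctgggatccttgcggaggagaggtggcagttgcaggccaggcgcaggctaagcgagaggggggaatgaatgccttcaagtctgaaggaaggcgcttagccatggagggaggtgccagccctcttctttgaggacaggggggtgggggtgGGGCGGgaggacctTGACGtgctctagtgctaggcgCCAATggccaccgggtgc
Ppp1r3c: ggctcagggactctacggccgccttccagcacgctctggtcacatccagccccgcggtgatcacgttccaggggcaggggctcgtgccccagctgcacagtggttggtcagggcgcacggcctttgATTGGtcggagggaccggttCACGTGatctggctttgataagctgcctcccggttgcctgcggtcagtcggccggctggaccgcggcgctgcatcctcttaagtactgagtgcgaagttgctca

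In the Ppp1r3g window the GC box starts 54 bases, the TGACG match 40 bases and the CCAAT box 18 bases before the start. The Ppp1r3c window holds a CCAAT box on the minus strand, from 124 bases before the start, and an E-box from 104 bases before it. No motif occurrences overlap in these windows. Of 32851 windows of the same length in the table, 32.7% hold the GC box, 33.8% the CCAAT box, 17.8% TGACG, 6.02% the E-box and 6.75% the AP-1 site. The AP-1 letters, to which dimers that include the JNK substrate Jun bind, were absent from both windows. The same table had windows for 7 of the 9 genes, and besides Ppp1r3g TGACG occurred in the Pygl window, from 44 bases before the start on the minus strand. A match of letters describes the window and is not evidence of binding.

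Ppp1r3g differed by far the most of the 8 genes between hepatocytes and liver. It also had the largest within-group SD of the 8, which was 1.25 in JNKΔhepa hepatocytes, where replicate 1 stood apart. In WT hepatocytes, JNKΔhepa liver and WT liver the SD was 0.0614, 0.471 and 0.205. JNKΔhepa hepatocytes of replicates 1, 2 and 3 read 7.96, 5.75 and 5.86, and WT hepatocytes read 5.98, 5.99 and 5.88. The livers of the same mice read 3.26, 2.98 and 3.90 in JNKΔhepa and 3.37, 3.40 and 3.74 in WT. Every hepatocyte array was above every liver array, which was the case for 0.244% of all genes, and all 6 liver readings were dim while no hepatocyte reading was. As deposited, hepatocytes exceeded liver by 2.80 on average, which is at least 6.94-fold, with differences within single mice of 1.97 to 4.70 (SD 0.985, n = 6 mice). Over all genes the median of this difference was −0.585, so that Ppp1r3g lay 3.38 above the typical gene.

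The size of the Ppp1r3g difference depended in part on 1 hepatocyte array. JNKΔhepa hepatocyte replicate 1 lay 2.07 above the mean of the other 5 hepatocyte arrays (4.2-fold), which read 5.75 to 5.99. Without that mouse, left out after its value had been seen, the difference averaged 2.41 (SD 0.346, n = 5 mice, at least 5.33-fold). The liver of the same mouse read 3.26, inside the range of the other livers. On this array 34 genes lay at least 1 above the mean of the other hepatocyte arrays, a count that ran from 15 to 41 over the 6 hepatocyte arrays, and Ppp1r3g had the second largest excess after Asic5, an ion channel gene.

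**Figure D1:**
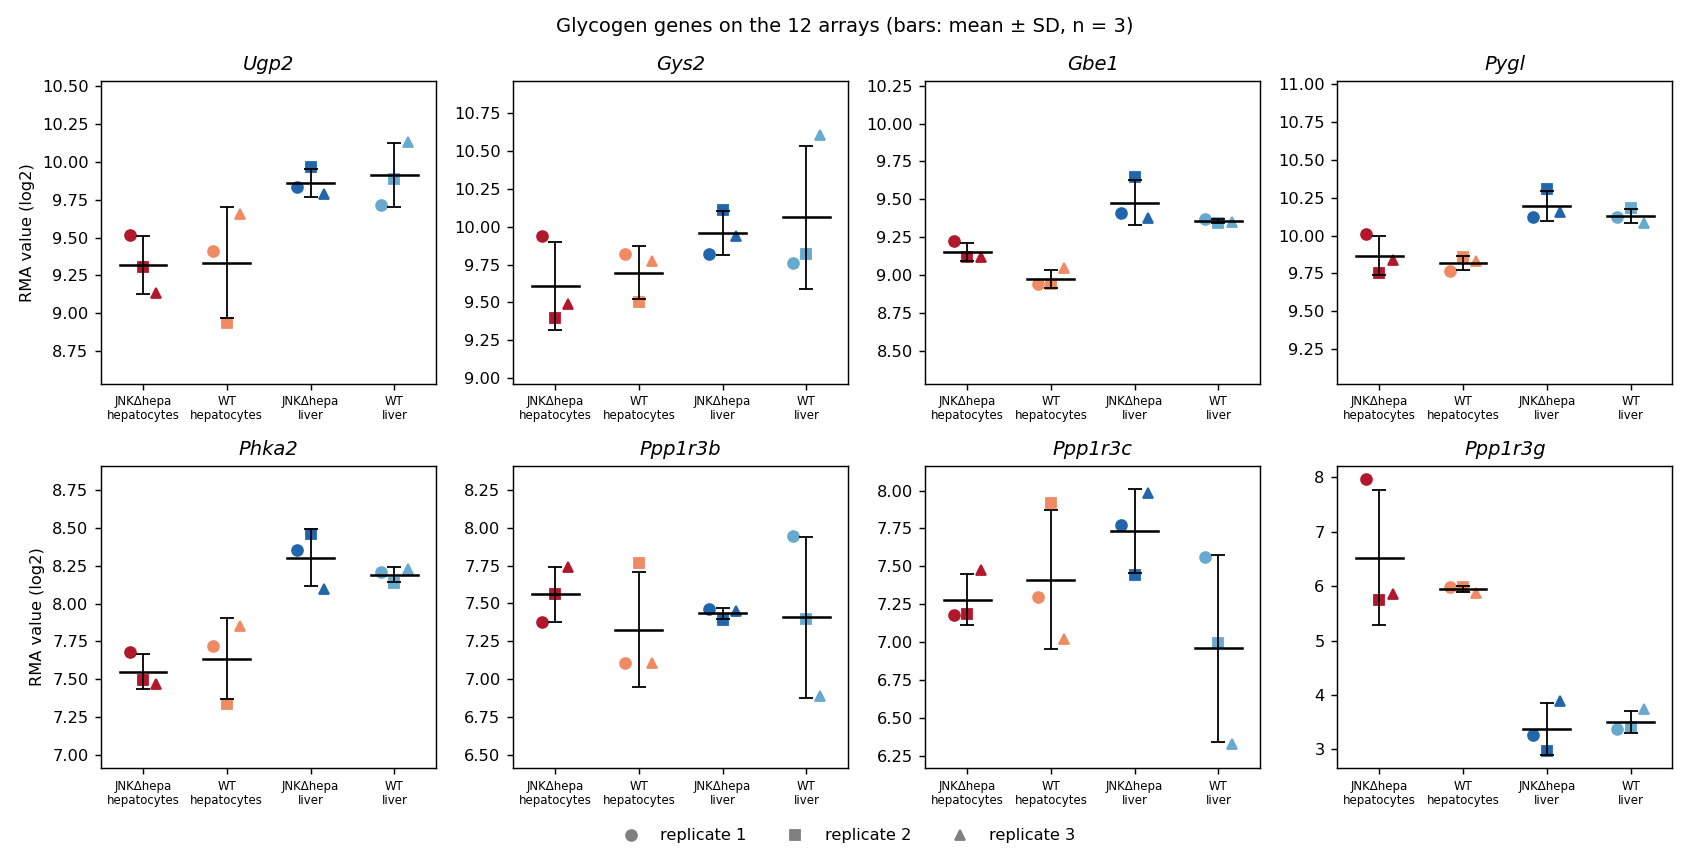
RMA values (log2) of the 8 measured glycogen genes in JNKΔhepa hepatocytes, WT hepatocytes, JNKΔhepa liver and WT liver, each panel with its own axis of at least 2 log2 units. Points are arrays, with a symbol for each replicate number, and black bars are the mean ± SD of 3 arrays. Ppp1r3g reads 5.75 to 7.96 in hepatocytes and 2.98 to 3.90 in liver, and 1 JNKΔhepa hepatocyte array stands above the rest.

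Ppp1r3g did not pass the test for genotype in either sample type. The log2 change was 0.58 in hepatocytes (SE 0.441, 95% interval −0.377 to 1.53, limma adjusted p = 0.668) and −0.129 in liver, where all readings were dim (SE 0.441, 95% interval −1.08 to 0.826, limma adjusted p = 0.952). Without JNKΔhepa hepatocyte replicate 1 the hepatocyte change turned to −0.141. The sign of the genotype difference in hepatocytes thus depended on that array.

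The profile of Ppp1r3g over the 12 arrays was nearest to that of Igfbp1, an insulin-repressed gene of a secreted binding protein, out of 16631 named genes searched. Likeness was measured as the root mean square distance between the 2 profiles, each centred on its own mean, and it was 0.594 for Igfbp1. Next were Fos (0.773), Gadd45g (0.826), Jun (0.836) and Egr1 (0.86), of which Fos, Jun and Egr1 are immediate early genes and Gadd45g is a stress-induced gene. The distance takes in the hepatocyte to liver difference for which Ppp1r3g was chosen, so genes with a similar difference lie near by construction. Egr1 had the second largest such difference of all genes as deposited (2.72), after Ppp1r3g (2.80). Without the mouse of JNKΔhepa replicate 1, Ppp1r3g (2.41) ranked 4 from the highest of 18820 genes. Shared regulation was not tested. Igfbp1 averaged 11.00 ± 0.214 in JNKΔhepa hepatocytes, 10.56 ± 0.113 in WT hepatocytes, 8.51 ± 1.10 in JNKΔhepa liver and 8.49 ± 0.509 in WT liver (SD, n = 3 each). Its highest value, 11.24, was on JNKΔhepa hepatocyte replicate 1, the array on which Ppp1r3g was highest, and its highest liver value, 9.77, was in JNKΔhepa replicate 3, as for Ppp1r3g. The other JNKΔhepa hepatocyte arrays read close to that highest value for Igfbp1, at 10.82 and 10.95, unlike for Ppp1r3g. Jun averaged 7.81 ± 0.160 in JNKΔhepa hepatocytes and 8.66 ± 0.259 in WT hepatocytes, and Fos 4.97 ± 0.501 in JNKΔhepa hepatocytes and 5.72 ± 1.11 in WT hepatocytes (SD, n = 3 each). The other neighbours had higher means in JNKΔhepa hepatocytes. Gadd45g averaged 8.81 ± 0.191 in JNKΔhepa hepatocytes and 7.61 ± 0.173 in WT hepatocytes. For Egr1 the means were 7.77 ± 0.387 in JNKΔhepa hepatocytes and 7.53 ± 1.18 in WT hepatocytes (SD, n = 3 each).

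**Figure D2:**
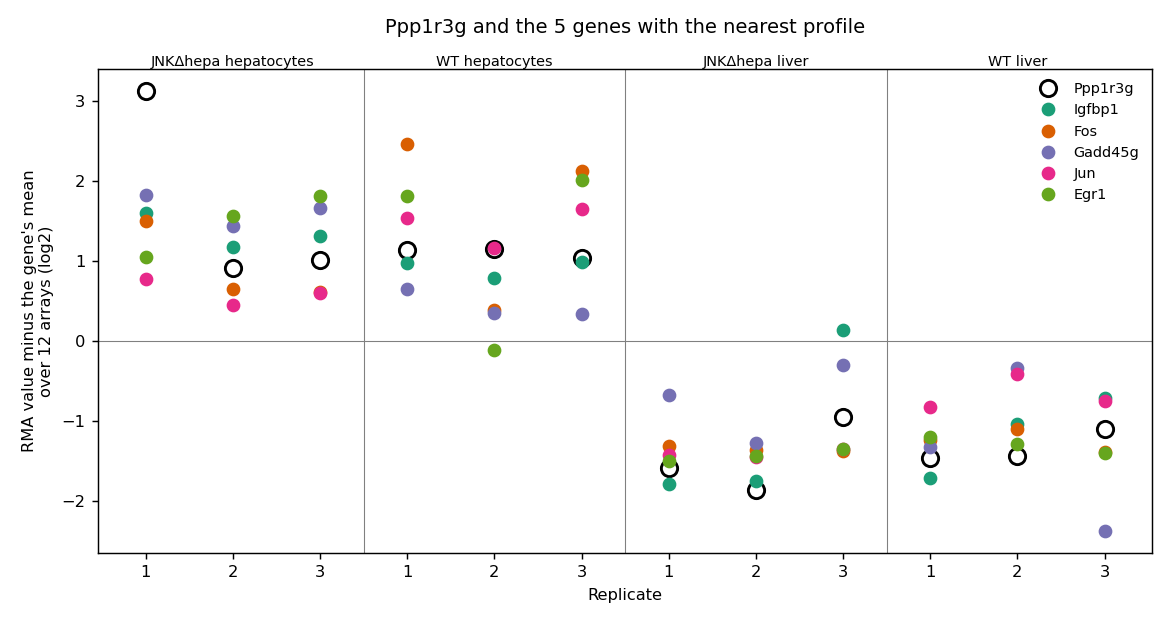
RMA values of Ppp1r3g (open circles) and of the 5 named genes with the nearest profile, each minus its own mean over the 12 arrays (log2), by group and replicate. All of the Ppp1r3g hepatocyte points lie above 0 and all of its liver points below 0, and JNKΔhepa hepatocyte replicate 1 is the highest.

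Ppp1r3c, whose product is also known as PTG (protein targeting to glycogen), had the largest genotype difference of the 8 genes in liver, but it did not pass the test. The livers read 7.77, 7.44 and 7.99 in JNKΔhepa replicates 1, 2 and 3, against 7.56, 6.99 and 6.32 in WT. The genotypes overlapped, because WT replicate 1 was above JNKΔhepa replicate 2. The log2 change was 0.78 (1.71-fold, SE 0.278, 95% interval 0.174 to 1.38, unadjusted p = 0.0156), with a limma adjusted p of 0.251 over all genes. It ran from 0.458 without WT replicate 3 to 1.08 without WT replicate 1, and over the alternatives tried the adjusted p was not below 0.138.

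In hepatocytes Ppp1r3c read 7.18, 7.18 and 7.47 in JNKΔhepa and 7.30, 7.92 and 7.02 in WT. The genotypes overlapped here too, with a log2 change of −0.132 (SE 0.278, 95% interval −0.734 to 0.47, limma adjusted p = 0.906). The hepatocyte effect minus the liver effect was −0.907 (SE 0.393, 95% interval −1.76 to −0.0566, unadjusted p = 0.0384), with a limma adjusted p of 0.662. Hepatocytes of all 3 JNKΔhepa mice read lower than their livers (−0.592, −0.256 and −0.513), whereas among WT mice the values were −0.264, 0.926 and 0.699.

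Ppp1r3b encodes the targeting subunit that is abundant in liver and is also known as GL. Its values were 7.38, 7.56 and 7.74 in JNKΔhepa hepatocytes and 7.11, 7.77 and 7.11 in WT hepatocytes, and 7.46, 7.39 and 7.45 in JNKΔhepa liver and 7.94, 7.39 and 6.88 in WT liver. All 4 groups overlapped with their neighbours in the order of the means. The genotype difference was 0.234 in hepatocytes (95% interval −0.262 to 0.73, limma adjusted p = 0.756) and 0.026 in liver (95% interval −0.47 to 0.522, limma adjusted p = 0.985).

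The spread of the targeting subunits was not even over the groups. In WT liver the SD was 0.529 for Ppp1r3b and 0.619 for Ppp1r3c, against 0.0372 and 0.275 in JNKΔhepa liver, a difference in spread that was not tested. WT liver replicate 3 had the lowest reading of both genes and, at 10.61 and 10.13, the highest readings of Gys2 and Ugp2 over the 12 arrays. The within-group SD exceeded that of 99.8% of all genes for Ppp1r3g, 98.7% for Ppp1r3c, 97.3% for Ppp1r3b and 95.6% for Gys2. For Gbe1 and Pygl these shares were 12.8% and 13.7%. The Ppp1r3g SD was 1.25 in JNKΔhepa hepatocytes, where replicate 1 stood apart, and 0.0614 to 0.471 in the other groups.

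Gys2, the liver isoform of glycogen synthase, and Ugp2, which makes the UDP-glucose that the synthase uses, were close between the genotypes. Gys2 read 9.94, 9.40 and 9.49 in JNKΔhepa hepatocytes and 9.82, 9.50 and 9.77 in WT hepatocytes, and 9.82, 10.11 and 9.94 in JNKΔhepa liver and 9.76, 9.82 and 10.61 in WT liver. Its genotype difference was −0.0881 in hepatocytes (95% interval −0.531 to 0.354) and −0.105 in liver (95% interval −0.548 to 0.337). Ugp2 averaged 9.32 ± 0.192 in JNKΔhepa hepatocytes and 9.33 ± 0.368 in WT hepatocytes, and 9.86 ± 0.0919 in JNKΔhepa liver and 9.91 ± 0.212 in WT liver (SD, n = 3 each). For both genes the arrays of the genotypes overlapped in both sample types, and the limma adjusted p was 0.904 to 0.984.

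Gbe1, the glycogen branching enzyme gene, was the one gene of the 8 whose genotypes did not overlap. It read 9.22, 9.12 and 9.12 in JNKΔhepa hepatocytes, against 8.94, 8.94 and 9.04 in WT hepatocytes, and 9.41, 9.65 and 9.38 in JNKΔhepa liver, against 9.37, 9.34 and 9.35 in WT liver. The JNKΔhepa arrays were thus higher in both sample types, by a gap of 0.071 in hepatocytes and 0.00813 in liver. Among all genes 7.36% were higher without overlap in JNKΔhepa hepatocytes and 12.9% in JNKΔhepa liver. The log2 change of Gbe1 was 0.179 in hepatocytes (1.13-fold, SE 0.0867, limma adjusted p = 0.433) and 0.123 in liver (1.09-fold, SE 0.0867, limma adjusted p = 0.633), so that it did not pass in either.

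The breakdown genes differed little by genotype. Pygl, the liver glycogen phosphorylase, read 10.01, 9.76 and 9.84 in JNKΔhepa hepatocytes and 9.77, 9.86 and 9.83 in WT hepatocytes, and 10.12, 10.30 and 10.16 in JNKΔhepa liver and 10.13, 10.18 and 10.09 in WT liver. Its 95% intervals were the narrowest besides those of Gbe1, −0.14 to 0.238 in hepatocytes and −0.125 to 0.254 in liver. Phka2, the liver isoform of the alpha regulatory subunit of phosphorylase kinase, averaged 7.55 ± 0.116 in JNKΔhepa hepatocytes and 7.63 ± 0.269 in WT hepatocytes, and 8.30 ± 0.188 in JNKΔhepa liver and 8.19 ± 0.0514 in WT liver (SD, n = 3 each). The genotypes overlapped for both genes in both sample types, and the limma adjusted p was 0.819 to 0.891.

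Counted together, 0 of the 8 genes passed limma at an adjusted p under 0.05 in hepatocytes, where 0.84% of all genes did, and 0 of 8 passed in liver, where 0.925% did. At an unadjusted p under 0.05 there were 0 of 8 in hepatocytes, against 12.6% of all genes, and 1 of 8 in liver, Ppp1r3c, against 12.5% of all genes. The median log2 change was 0.0153 in hepatocytes, against −0.0018 for all genes, and 0.0452 in liver, against 0.0155 for all genes. In the test of the hepatocyte effect minus the liver effect 0 of 8 passed, against 0.0106% of all genes, and 1 of 8 had an unadjusted p under 0.05, against 7.22%. Summed stellate cell markers were 8.14 to 8.69 in JNKΔhepa hepatocytes, against 8.73 to 9.15 in WT hepatocytes, and their part in the genotype values was not tested.

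**Figure D3:**
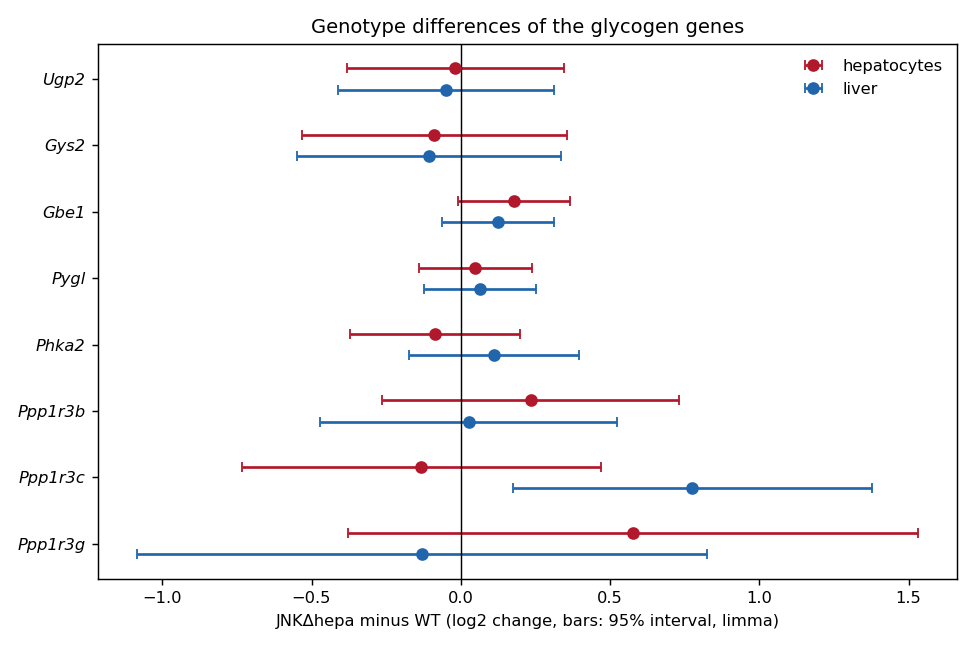
Log2 change of the 8 genes, JNKΔhepa minus WT, in hepatocytes and in liver, with limma's 95% interval. All intervals but that of Ppp1r3c in liver, 0.174 to 1.38, include 0, and those of Ppp1r3g are the widest.

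The remaining genes showed how strongly the comparison of hepatocytes with liver depends on the scaling. As deposited, Ugp2, Gbe1, Pygl and Phka2 read lower in hepatocytes on every array than on any liver array, which was also the case for 73.5% of all genes. The mean differences were −0.561 for Ugp2 and −0.654 for Phka2, near the median of −0.585 over all genes. Those of Gys2 (−0.356), Gbe1 (−0.354) and Pygl (−0.319) lay 0.229 to 0.265 above that median, and 78.9% to 82.8% of genes had a lower difference. After quantile normalisation of all 12 arrays together, which brought that median to 0.0161, these values became −0.0561 for Ugp2, 0.125 for Gys2, 0.174 for Gbe1, 0.137 for Pygl and −0.0445 for Phka2. No direction is therefore given for these 5 genes.

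Ppp1r3b and Ppp1r3c had mean differences above that of the typical gene, with mice that went in both directions as deposited. Their deposited mean differences were 0.0232 (SD 0.449) and −5.57e-05 (SD 0.647, n = 6 mice each), and 97.8% and 97.5% of all genes had a lower difference. After quantile normalisation they were 0.664 and 0.643, above 97.7% and 97.4% of genes. Within single mice the quantile-normalised values ran from −0.203 in WT mouse 1 to 0.996 in WT mouse 2 for Ppp1r3b, and from 0.0479 in JNKΔhepa mouse 1 to 1.54 in WT mouse 2 for Ppp1r3c. Under both scalings the mean differences of these subunit genes and of Ppp1r3g were above those of the 5 enzyme and kinase genes. The other measured targeting subunit genes had −0.47 for Ppp1r3a, −0.58 for Ppp1r3d, −1.01 for Ppp1r3e and −0.883 for Ppp1r3f as deposited. After quantile normalisation these were 0.00989 for Ppp1r3a, 0.257 for Ppp1r3d, −0.153 for Ppp1r3e and −0.289 for Ppp1r3f. Ppp1r3d was thus above the 5 enzyme and kinase genes after quantile normalisation, but not as deposited. Ppp1r3a, Ppp1r3e and Ppp1r3f were not above all 5 under either scaling. Ppp1r3a and Ppp1r3f were dim on all 6 hepatocyte and all 6 liver arrays. Ppp1r3d was dim on 5 hepatocyte and 6 liver arrays, so most of these differences are between dim readings. The difference of Ppp1r3g was 3.504 after quantile normalisation, against liver readings that were dim.

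**Figure D4:**
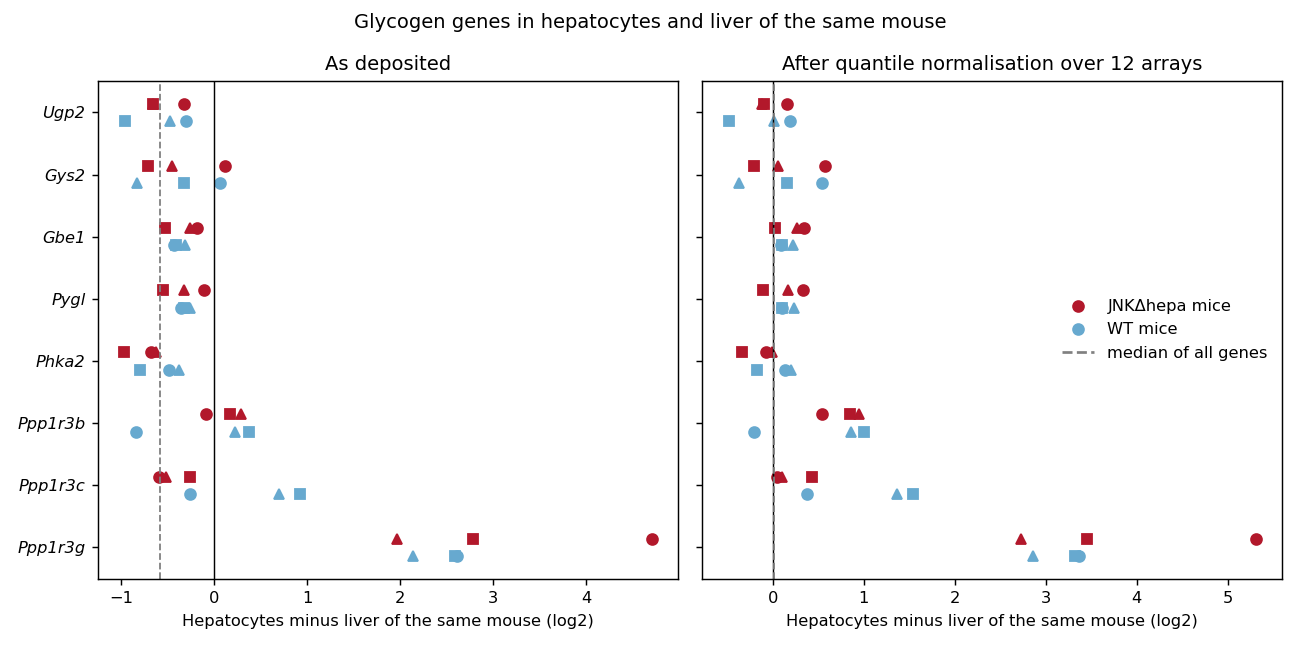
Hepatocyte value minus liver value of the same mouse (log2) for the 8 genes, as deposited and after quantile normalisation over the 12 arrays, with a symbol for each replicate number and the median of all genes as a dashed line. Ppp1r3g lies at 1.97 to 4.70 as deposited, and Ppp1r3b and Ppp1r3c mostly lie right of the dashed line.

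The other genes of the pathway came from a list of 44, and 38 of those had an unshared probe set. In the genotype comparisons 1 of the 38 passed, in hepatocytes, and it fell, as did 0.473% of all genes. Calm3, a calmodulin gene whose product serves as the delta subunit of phosphorylase kinase among many other roles, read 6.44, 6.20 and 6.33 in JNKΔhepa hepatocytes, against 6.89, 7.05 and 6.84 in WT hepatocytes. The groups did not overlap, and Calm3 fell 1.52-fold (log2 change −0.60, SE 0.112, limma adjusted p = 0.0239). In the same comparison the median summed level was 8.08 in JNKΔhepa hepatocytes and 9.15 in WT hepatocytes for Kupffer cell markers. It was 8.20 in JNKΔhepa hepatocytes and 9.03 in WT hepatocytes for stellate cell markers, and 9.58 in JNKΔhepa hepatocytes and 10.12 in WT hepatocytes for endothelium markers. The part of these cells in the Calm3 value was not tested. The call was lost without WT hepatocyte replicate 1 (limma adjusted p = 0.0777) or 3 (0.0581), without JNKΔhepa hepatocyte replicate 2 (0.116) or 3 (0.0853), and in a fit of the hepatocyte arrays alone (0.0651). In liver Calm3 had a log2 change of −0.309 (limma adjusted p = 0.256), again without overlap, and Calm2 had −0.0674 in hepatocytes and 0.0566 in liver.

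In liver 0 of the 38 passed limma and 5 had an unadjusted p under 0.05, against 12.5% of all genes. G6pc, the catalytic subunit of glucose-6-phosphatase that releases free glucose, came nearest. It read 11.87, 12.13 and 12.28 in JNKΔhepa liver, against 11.27, 11.68 and 11.44 in WT liver, without overlap (log2 change 0.63, SE 0.137, limma adjusted p = 0.0525). The adjusted p of G6pc in liver crossed the threshold with quantile normalisation (0.0419) and in other settings, and was 0.202 without WT liver replicate 1. In hepatocytes the G6pc values were 12.40, 12.06 and 11.98 in JNKΔhepa and 12.04, 11.98 and 12.09 in WT, with a log2 change of 0.107.

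By role, the smallest p in liver belonged to genes that did not pass. They were Ppp1r3e, another targeting subunit gene (log2 change −0.44, adjusted p = 0.123, dim on 1 JNKΔhepa array), Epm2a, the glycogen phosphatase laforin (0.43, adjusted p = 0.236), the kinase gene Akt2 (0.21, adjusted p = 0.26) and Gyg, the glycogenin that primes new particles (0.17, adjusted p = 0.685), all by limma. In hepatocytes the corresponding genes were Gyg (−0.28, adjusted p = 0.401), the starch-binding protein gene Stbd1 (0.20, adjusted p = 0.494), the hexokinase gene Hk1 (−0.168, adjusted p = 0.506, dim on 5 of the 6 arrays), the insulin receptor gene Insr (0.17, adjusted p = 0.518) and Ppp1r3d (−0.19, adjusted p = 0.535, dim on 5 of the 6 arrays), again by limma. Over the 38 genes the median log2 change was 0.008 in hepatocytes and 0.0434 in liver, near the medians of all genes given above. The groups did not overlap for 6 of 38 genes in hepatocytes and 13 of 38 in liver, against 14.7% and 20.4% of all genes. The test of the hepatocyte effect minus the liver effect was passed by 0 of 38 (limma), against 0.0106% of all genes. At an unadjusted p under 0.05 there were 3 of 38, near the 7.22% of all genes. They were G6pc (−0.526), Epm2a (−0.556) and Gyg (−0.45).

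**Figure D5:**
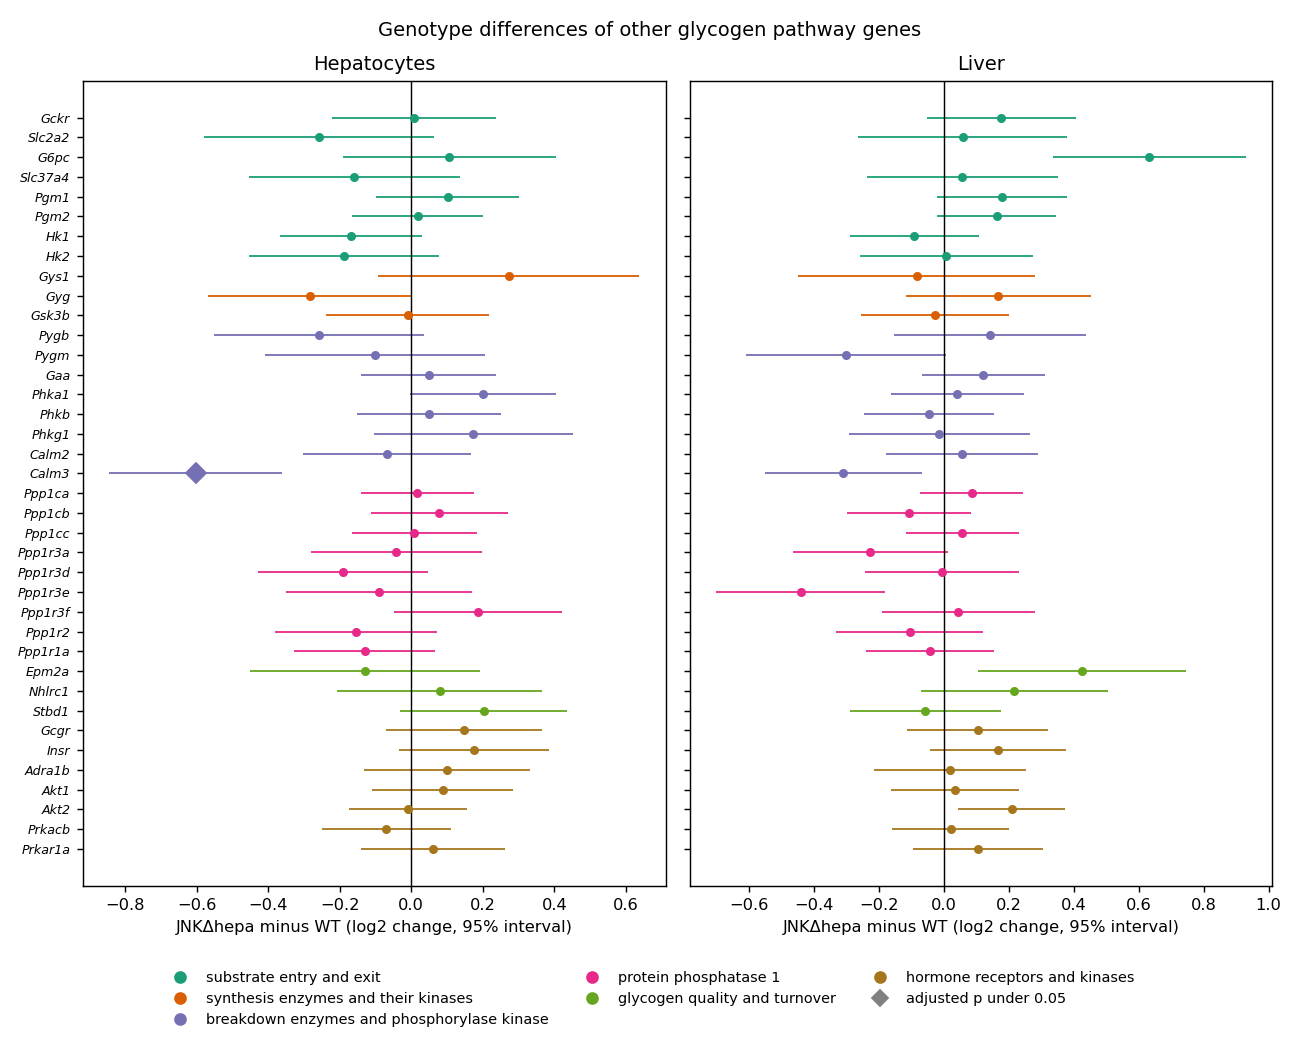
Log2 change, JNKΔhepa minus WT, of the 38 measured pathway genes outside the 9, in hepatocytes and in liver, coloured by role, with limma's 95% interval. Calm3 in hepatocytes, at −0.60, is the one point drawn as a diamond, past an adjusted p of 0.05.

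Between hepatocytes and liver, the synthase and phosphorylase isoforms known from muscle and brain had lower differences than the liver isoforms under both scalings. No test between isoforms was run. As deposited, 36 of the 38 pathway genes were lower in hepatocytes by limma and 1, G6pc (0.31), was higher, against 91.5% lower and 0.776% higher among all genes. After quantile normalisation 11 were lower and 7 higher, against 22% and 23.1% of all genes. Those with the largest difference in their role under the deposited scaling were Hk1 (−1.64), Gys1, the muscle isoform of the synthase (−1.16), Pygb, the brain isoform of phosphorylase (−1.63), Ppp1r3e (−1.01), the ubiquitin ligase gene Nhlrc1 (−1.23) and the protein kinase A subunit gene Prkacb (−1.01).

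After quantile normalisation the differences were −0.79 for Hk1 (limma adjusted p = 2.74e-06), −0.345 for Gys1 (adjusted p = 0.0257) and −0.805 for Pygb (adjusted p = 3.35e-05), all lower in hepatocytes, against 0.125 for Gys2 and 0.137 for Pygl. Pygm, the muscle isoform of phosphorylase, had −1.03 as deposited and −0.253 after quantile normalisation (limma adjusted p = 0.0633). It was dim on all 6 hepatocyte arrays and on 5 of the 6 liver arrays. Phka1, the muscle isoform of the alpha subunit, had −0.0696 (limma adjusted p = 0.42), against −0.0445 for Phka2. Under the deposited scaling, all 6 Kupffer cell, 6 sinusoidal endothelium and 7 stellate cell markers were lower in hepatocytes by limma. Their medians were −2.16, −1.94 and −2.18. Among all genes 91.5% were lower under that scaling, with a median of −0.585 over all genes. Of 5 skeletal muscle markers, Ckm, Myh4 and Ppp1r3a were dim on every array. Acta1 was dim on no liver array (4.31 to 4.42), and Pygm was not dim in WT liver replicate 3. The part of these cells in the values of Hk1, Gys1, Pygb and Pygm was not tested.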

How the data were processed

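The authors' deposited table holds log2 values of 35556 probe sets for 12 samples. Per the submitters' processing notes it was made with RMA. The log base was read from the values, and no source used here gives the software or build. Medians and quartiles were alike within liver and within hepatocyte arrays but not between them; how the sample types were normalised together or apart is not stated. A platform annotation named 21218 probe sets with 1 gene, and the probe set with the highest mean stood for each gene.

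Means of the 4 groups were fitted with limma 3.58.1 in R 4.3.3 to all genes, with Benjamini-Hochberg adjustment over 18820 genes and a threshold of 0.05, after the test had been tried on simulated data. Tests were two-sided. The replicate numbers mark the same mouse in both sample types. Deviations of the 6 such pairs from their group means correlated at −0.0133 to 0.0982 across genes. Nothing beyond the mouse numbers says how samples were batched. The 9 genes and all lists were chosen with earlier results of these data known.

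Named genes were the 9, Mapk8 and Mapk9, and pathway genes that passed, had the smallest p or had the largest hepatocyte difference of their role. The 5 nearest profiles were named for Ppp1r3g and sought also for Ppp1r3c and Gys2. Alternatives covered scaling, dim genes, probe sets, weights, blocks and left-out arrays. The number of arrays, 3 per group, limits the precision. Figures were drawn with matplotlib 3.10.9.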

Additional observations from a re-analysis of the deposited data

How the results depend on the processing

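Under all alternatives 0 of the 8 genes passed for genotype in hepatocytes, in liver or in the interaction. The number of all genes past the threshold was 158 in hepatocytes (77 with the hepatocyte arrays alone), 174 in liver (408 with array weights) and 2 in the interaction (1 without dim genes, 4 with array weights). Leaving out single arrays gave 61 to 387 genes in hepatocytes, 80 to 225 in liver and 1 to 7 in the interaction. With the mouse as a replicate block the interaction of Ppp1r3c was −0.907 (limma adjusted p = 0.461), and with the replicate number as a block the genotype effects of the 8 genes gave 0 calls. Same-numbered samples of different genotype, which are different mice, had correlations of −0.12 to 0.112. As deposited, 2 of the 8 genes had a mean difference above 0 between hepatocytes and liver, 6 after quantile normalisation, 8 after centring each array on its median, and 1 to 3 without single arrays. The sign turned for Gbe1 (0.174 with quantile normalisation, 0.501 with median centring), Pygl (0.137 and 0.535), and with median centring for Ugp2 (0.293) and Phka2 (0.2003). It also turned for Gys2 (0.125 and 0.499), whose deposited difference was within its SD over mice, and in 10 of 17 alternatives for Ppp1r3c and 3 of 17 for Ppp1r3b, whose deposited differences were near 0. The 2 scalings moved the median of all genes from −0.585 as deposited to 0.0161 and 0.27. For Ppp1r3b both scalings kept the deposited sign (0.664 and 0.878), while left-out arrays gave −0.107 to 0.157. Ppp1r3c ran from −0.159 to 0.15 over the left-out arrays.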

Other observations

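Ppp1r3c and Gys2 had neighbours of their own in profile over the 12 arrays. Nearest to Ppp1r3c were Slc17a8 (root mean square distance 0.183), Insig2 (0.27), Clpx (0.282), Proser2 (0.291) and Coq8a (0.295). Insig2, which holds back sterol regulatory element-binding proteins in the endoplasmic reticulum, averaged 11.39 in JNKΔhepa liver and 10.85 in WT liver, and its lowest value, 10.45, was in WT liver replicate 3, as for Ppp1r3c. Clpx, a mitochondrial protease subunit gene, read 8.28 on that array and 9.33 to 9.87 on the other 11. Of the 5 nearest to Gys2, 4 were dim, and the adenylate kinase gene Ak4 (0.164) read 10.08 in WT liver replicate 3, its highest value.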
